A study of Mus musculus with 4 samples.

Results

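The glucocorticoid receptor, the enzyme that supplies its hormone inside the liver cell, and 8 genes that the receptor is known to induce were followed in the livers of untreated mice. The 10 genes, Nr3c1, Hsd11b1, Fkbp5, Tsc22d3, Sgk1, Dusp1, Errfi1, Cdkn1a, Klf9 and Zbtb16, were chosen by name for their place in the pathway, out of 48709 gene identifiers counted. Earlier results of these data were known when they were chosen. Each was found, and all 10 passed the filter on low counts that left 13699 genes to test. They are described one by one because the metallothionein genes Mt1 and Mt2, both lower in each DDI2-KO-labelled library than in WT, are glucocorticoid targets too.

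Liver mRNA was sequenced from 4 C57BL/6 mice, which the study kept untreated for these libraries. The 2 WT mice were littermates with floxed Ddi2 and no Cre recombinase. The 2 mice labelled DDI2-KO, with the genotype label DDI2-/-, carried 2 floxed alleles (DDI2 flox/flox) and Cre under the albumin promoter (Alb-Cre+). The paper calls this deletion liver-specific. Mice of both sexes, aged 6 to 12 weeks, were used in the study as a whole. DDI2 is an aspartic protease that cuts the transcription factor NRF1.

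Reads on genes numbered 22501208 to 34109018 per library, and both WT libraries were the deeper ones. The whole-gene count of Ddi2 was not lower in the DDI2-KO-labelled libraries (log2 fold change 0.28, SE 0.17, adjusted p = 0.349 in edgeR's quasi-likelihood fit). It cannot register the loss of a single exon, and 18.3% of the exon bases of Ddi2 are shared with Rsc1a1, so the groups below rest on the labels. Of the 6 hepatocyte markers found, Alb among them, none passed the test, and 3 were higher and 3 lower by the fit. Their summed level, most of it from Alb, was 153640 and 178574 CPM in WT and 144479 and 148506 CPM in the DDI2-KO-labelled libraries. Alb alone had 134404 and 154589 CPM in WT and 122390 and 128489 CPM in the other group. The sums did not overlap between the groups, and neither did the levels of 55.7% of all tested genes. Of the 6 markers, 2 separated the groups upward and 1 downward. Reads on mitochondrial genes were 9.91% to 10.5% of the total in WT and 5.27% to 6.34% in the DDI2-KO-labelled libraries, and the part of this difference in the results was not tested. Levels are CPM, read counts relative to the TMM-scaled library size, and adjusted p-values are Benjamini-Hochberg values over all tested genes. In whole liver a lower level can come from fewer cells of a type or from less RNA per cell, which cannot be told apart.

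Glucocorticoids are steroid hormones of the adrenal gland that rise with stress, with fasting and before the active part of the day. Their receptor, the product of Nr3c1, waits in the cytoplasm bound to HSP90 and co-chaperones. On binding hormone it enters the nucleus, where it binds as a pair to an inverted repeat in DNA, the glucocorticoid response element, or joins other factors such as AP-1 and NF-kappa B. In the liver it is known for inducing genes of gluconeogenesis and amino acid breakdown, and its target genes include several of its own brakes.

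Of the 10 genes, Dusp1 alone passed the test, with a higher level in the DDI2-KO-labelled libraries. This is 1 of 10, beside 2.53% of all tested genes with an adjusted p under 0.05 (346 genes, 182 higher and 164 lower; edgeR's quasi-likelihood fit). By the fit, 7 of the 10 were higher and 3 lower, with a median log2 fold change of 0.45 beside -0.015 over all tested genes. The WT libraries were both exceeded by both DDI2-KO-labelled libraries in Hsd11b1, Fkbp5, Tsc22d3, Dusp1 and Cdkn1a, while Nr3c1 and Klf9 separated the other way. Such a separation upward was seen in 28.0% of all tested genes and downward in 27.7%, and in either direction in 55.7%, so that 5, 2 and 7 of 10 are to be read against those shares. With 2 mice per group an exact permutation test of a single gene cannot give a two-sided p below 0.333, and p-values here come from the model over all genes.

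**Figure D1:**
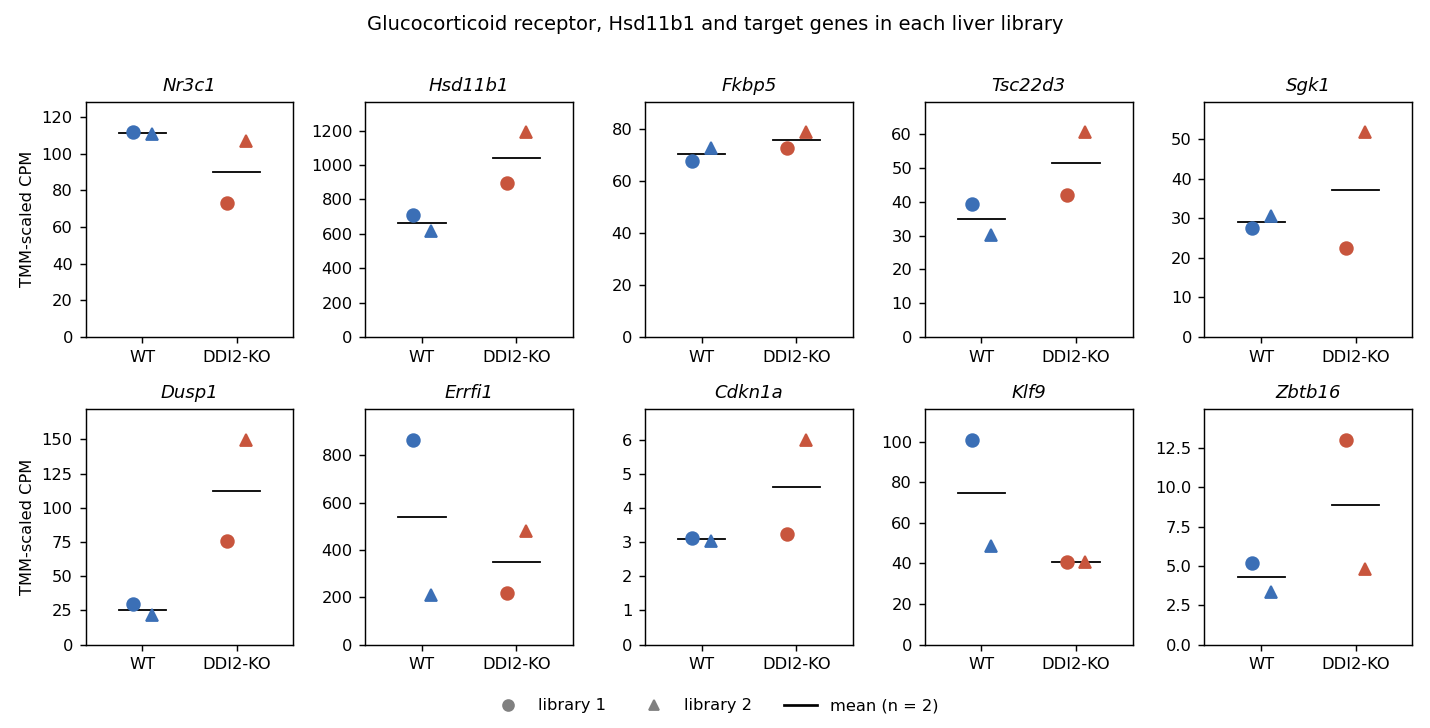
Each panel shows 1 gene, with the TMM-scaled CPM of each library on a linear axis from 0, the WT libraries in blue, those labelled DDI2-KO in red, and the mean of 2 libraries as a black line. Dusp1 separates the groups widely (29.4 and 21.8 against 75.6 and 150 CPM), whereas in Errfi1, Sgk1 and Zbtb16 the groups overlap.

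Nr3c1 (ENSMUSG00000024431, minus strand of chromosome 18, 39410545 to 39519421 of GRCm38), the receptor gene itself, was read at 112 and 111 CPM in WT and at 73.4 and 107 CPM in the DDI2-KO-labelled libraries. The WT libraries were almost equal, and library 2 of the other group lay just under them, so that the lower mean rests on library 1. Its genotype difference was -0.30 on the log2 scale (SE 0.21, 95% CI -0.78 to 0.17, adjusted p = 0.412 in edgeR's quasi-likelihood fit). Without that library it was -0.051.

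Hsd11b1 (ENSMUSG00000016194, minus strand of chromosome 1, 193221634 to 193264075) encodes the enzyme that turns inactive glucocorticoid back into corticosterone inside the hepatocyte. It was the most abundant of the 10 genes in CPM in 3 of the 4 libraries, at 709 and 617 CPM in WT and at 894 and 1190 CPM in the DDI2-KO-labelled libraries. The groups did not overlap, with means of 663 ± 64.6 and 1042 ± 210 CPM (SD, n = 2). The log2 fold change of 0.65 (SE 0.20, 95% CI 0.19 to 1.12) had an adjusted p of 0.110 in edgeR's quasi-likelihood fit and did not pass. Hsd11b1 came under the threshold with DESeq2 (adjusted p = 0.0335) and with unfiltered counts (adjusted p = 0.0286, edgeR).

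Fkbp5 (ENSMUSG00000024222, minus strand of chromosome 17, 28399094 to 28517527) encodes a co-chaperone that lowers the affinity of the receptor for hormone, and its induction is a standard readout of receptor activity. It was the steadiest of the 10 genes, at 67.6 and 72.7 CPM in WT and at 72.8 and 78.7 CPM in the DDI2-KO-labelled libraries. The highest WT library and the lowest of the other group were nearly level. By the fit, Fkbp5 differed by a log2 fold change of 0.11 (SE 0.16), with a 95% CI of -0.25 to 0.47 and an adjusted p of 0.716 in edgeR's quasi-likelihood fit.

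Tsc22d3 (ENSMUSG00000031431, minus strand of chromosome X, 140539528 to 140600659) encodes GILZ, a leucine zipper protein that carries part of the anti-inflammatory action of the hormone. It had 39.4 and 30.2 CPM in WT and 42.2 and 60.6 CPM in the DDI2-KO-labelled libraries. The gap between the groups, from 39.4 to 42.2 CPM, was smaller than the gap inside either group. Its log2 fold change of 0.56 (SE 0.22, 95% CI 0.055 to 1.07) did not pass the test (adjusted p = 0.178 in edgeR's quasi-likelihood fit).

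Sgk1 (ENSMUSG00000019970, plus strand of chromosome 10, 21882184 to 21999903) encodes a kinase that controls ion channels and transporters. It was read at 27.7 and 30.7 CPM in WT and at 22.5 and 51.7 CPM in the DDI2-KO-labelled libraries, which lay on either side of the WT libraries. Its log2 fold change was 0.35 (SE 0.38, 95% CI -0.60 to 1.29, adjusted p = 0.639 in edgeR's quasi-likelihood fit). The direction of Sgk1 was set by single libraries. It was -0.37 without library 2 labelled DDI2-KO and 0.83 without library 1, where the adjusted p of 0.0453 from edgeR fell under the threshold.

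The promoter of Sgk1 is shown because, of the 8 genes with promoter windows, Sgk1 alone had one that held the full response element. The element was searched as AGAACA, any 3 bases and TGTTCT, on both strands, in windows from 250 bases before to 50 bases after annotated starts (RefSeq sequence, GRCm38.p6). Of the 10 genes, 8 had such windows, 17 in all, and 6 of these belong to Sgk1. The full element was in 3 of 32851 windows of all genes (0.00913%), or in 54 (0.164%) with at most 1 mismatch. The hexamer AGAACA, on either strand, was in 19.0% of all windows and in 4 of the 17 here, which belong to 2 genes, Sgk1 and Tsc22d3. The window below (chr10:21993640-21993939, plus strand) holds the element at position -189 from the start (chr10:21993701-21993715), and the capitals mark every AGAACA hexamer on either strand:
Sgk1 promoter, window 5: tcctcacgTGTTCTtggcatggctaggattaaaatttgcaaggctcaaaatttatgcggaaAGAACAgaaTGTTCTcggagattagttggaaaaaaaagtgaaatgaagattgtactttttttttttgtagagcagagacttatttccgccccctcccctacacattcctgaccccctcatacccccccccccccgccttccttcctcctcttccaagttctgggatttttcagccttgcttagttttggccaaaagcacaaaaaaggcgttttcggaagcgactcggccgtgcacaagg
Sgk1 counts cover the whole gene and do not tell which start was used, and a match of letters is no measure of binding.

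Dusp1 (ENSMUSG00000024190, minus strand of chromosome 17, 26505590 to 26562128) encodes a phosphatase that switches off the MAP kinases p38, JNK and ERK. It was read by 990 and 672 reads in WT and by 1957 and 3441 in the DDI2-KO-labelled libraries, although those libraries were the shallower ones. Scaled, this was 29.4 and 21.8 CPM against 75.6 and 150 CPM, or 25.6 ± 5.44 and 113 ± 52.4 CPM (SD, n = 2). In CPM, the lower of the DDI2-KO-labelled libraries was still above the higher WT library by more than the gap inside WT. That margin was smaller than the gap inside the DDI2-KO-labelled group. The log2 fold change was 2.14 (SE 0.35, 95% CI 1.28 to 2.99), a 4.40-fold higher level, with an adjusted p of 0.0438 in edgeR's quasi-likelihood fit. The call lay close to the threshold. Without WT library 2 the log2 fold change was 1.94 and the adjusted p 0.0623 (edgeR).

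The promoter window of Dusp1 (chr17:26508423-26508722, minus strand) is shown for contrast, as that of the gene that passed the test. It held no AGAACA hexamer, and its best match to the element, caAACAaaccGTTCT at position -107, had 3 mismatches in the 12 fixed letters. The capitals in the window mark the cAMP response element TGACGTCA, at position -143, a motif searched after the values had been seen:
Dusp1 promoter: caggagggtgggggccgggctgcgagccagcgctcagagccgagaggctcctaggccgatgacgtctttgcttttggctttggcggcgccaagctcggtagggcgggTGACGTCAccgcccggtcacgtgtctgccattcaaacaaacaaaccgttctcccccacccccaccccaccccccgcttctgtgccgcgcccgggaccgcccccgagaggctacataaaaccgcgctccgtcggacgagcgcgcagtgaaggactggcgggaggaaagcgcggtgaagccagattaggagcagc
This motif stood in 1.79% of all windows. It was also found in a window of Errfi1, at position -51, and in that of Btg2, at position -166. Btg2 was the only 1 of 7 immediate early genes with windows, a class described below, that held the motif. The windows of Fos and Jun did not. The motif says nothing of which factor was bound in these livers.

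Dusp1 is also an immediate early gene, one of those that rise within minutes of many stimuli, and others of that class were higher as well. Of the 8 tested, 3 passed, all higher, beside 1.33% of all tested genes, and the median log2 fold change was 1.44. Fos, the AP-1 subunit, went from 41 and 34 reads in WT to 163 and 193 (log2 fold change 2.66, adjusted p = 0.0120 in edgeR's quasi-likelihood fit). Jun, its partner, rose by a log2 fold change of 1.42 and Btg2, an antiproliferative gene, by 1.64 (adjusted p of 0.0362 and 0.0404 by edgeR). The call of Jun was lost without WT library 2 (adjusted p = 0.0886, edgeR) or library 1 labelled DDI2-KO (0.0576), and that of Btg2 without any library but WT library 2 (0.0609 to 0.0893). The summed level of the 9 listed immediate early genes was 71.5 and 87.3 CPM in WT and 262 and 150 CPM in the DDI2-KO-labelled libraries. Egr1, which did not pass and is named after its values were seen, made up 146 and 43.2 CPM of the latter. Fos (6.30 and 8.40 CPM) and Btg2 (38.2 and 56.7 CPM) were, like Dusp1, higher in library 2 than in library 1 of that group, and Jun (32.6 and 23.2 CPM) was not. An antisense gene covers 7.28% of the exon bases of Jun. The part of these genes in the Dusp1 result was not tested.

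Errfi1 (ENSMUSG00000028967, plus strand of chromosome 4, 150853919 to 150868892) encodes a feedback inhibitor of the EGF receptor. It had 866 and 209 CPM in WT and 220 and 481 CPM in the DDI2-KO-labelled libraries, so that both of the latter lay between the WT libraries. The WT libraries differed by 4.13-fold, a spread reached by 0.715% of the tested genes, beside a median of 1.14-fold. The log2 fold change of -0.62 (SE 0.87, 95% CI -3.16 to 1.92, adjusted p = 0.729 in edgeR's quasi-likelihood fit) has no settled direction. Without WT library 1 it was 0.74.

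Klf9 (ENSMUSG00000033863, plus strand of chromosome 19, 23141226 to 23168134) encodes a zinc finger transcription factor that is induced by glucocorticoids and by thyroid hormone. It had 101 and 48.5 CPM in WT, and 40.8 and 40.7 CPM in the DDI2-KO-labelled libraries, which were almost equal and below both. Library 1 of WT was 2.08-fold above library 2. The log2 fold change was -0.87 (SE 0.33, 95% CI -1.68 to -0.066, adjusted p = 0.188 in edgeR's quasi-likelihood fit), the lowest of the 10. It ranged from -1.31 without WT library 2, where the adjusted p was 0.0194 (edgeR), to -0.25 without WT library 1, and with DESeq2 on all libraries the adjusted p was 0.0480.

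Zbtb16 (ENSMUSG00000066687, minus strand of chromosome 9, 48654297 to 48836222) encodes the transcription factor PLZF, a target that glucocorticoids induce in several cell types. It had few reads here, 175 and 103 in WT and 337 and 110 in the DDI2-KO-labelled libraries, or 5.21, 3.33, 13.0 and 4.79 CPM. Library 1 labelled DDI2-KO stood apart, and library 2 lay between the WT libraries. The log2 fold change of 1.06 (SE 0.49, 95% CI -0.15 to 2.28) had an adjusted p of 0.261 in edgeR's quasi-likelihood fit. Without library 2 it was 1.61 (adjusted p = 0.0380, edgeR).

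Cdkn1a (ENSMUSG00000023067, plus strand of chromosome 17, 29090976 to 29100727) encodes p21, an inhibitor of cyclin-dependent kinases that answers to p53 as well as to glucocorticoids. It had the fewest reads of the 10 genes in 3 of the 4 libraries, with 105 and 94 in WT and 84 and 138 in the DDI2-KO-labelled libraries, well above the 3 counts taken as the smallest detectable level. Scaled, this was 3.12, 3.04, 3.25 and 6.01 CPM, so that library 2 labelled DDI2-KO was high and the other libraries were level. Cdkn1a had a log2 fold change of 0.58 (SE 0.32, 95% CI -0.16 to 1.32, adjusted p = 0.314 in edgeR's quasi-likelihood fit). Of 10 other p53 targets tested none passed, and their median log2 fold change was 0.21. An antisense gene covers 7.68% of the exon bases of Cdkn1a, and the strand setting of the counting is not given in the sources used here.

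The 2 libraries of each group were also compared with each other. In WT, 8 of the 10 genes were higher in library 1 than in library 2, with Fkbp5 and Sgk1 as the exceptions, whereas over all tested genes the share was 49.8%. In the group labelled DDI2-KO, 8 of 10 were higher in library 2, with Klf9 and Zbtb16 as the exceptions, where 49.98% of all tested genes were higher in library 1. Of these genes, 8 share an inducer and are not independent of each other, so the counts are a description. In Hsd11b1, Tsc22d3 and Dusp1 the fitted difference between the genotypes was larger than the difference inside either group, and in the other 7 genes it was not.

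**Figure D2:**
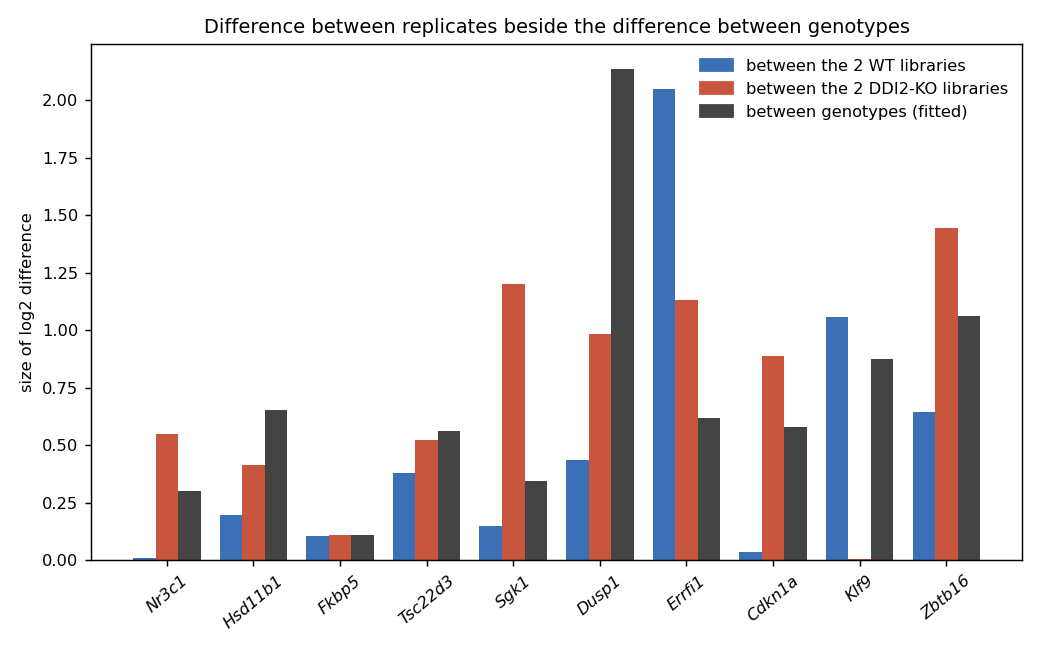
Bars give, for each gene, the size of the log2 difference between the 2 WT libraries (blue), between the 2 DDI2-KO-labelled libraries (red), and between the genotypes as fitted (grey), on an axis from 0. The genotype bar of Dusp1 (2.14) is the tallest and exceeds both of its replicate bars, while in Errfi1 the WT bar is the tallest.

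Levels of different genes were compared per length, as CPM per kb of exon. In WT, Hsd11b1 (156 ± 15.2) and Errfi1 (150 ± 130) came first, and their libraries overlapped (SD, n = 2). Klf9 (15.5 ± 7.69) and Nr3c1 (14.5 ± 0.0641) followed and also overlapped (SD, n = 2). Tsc22d3, Dusp1 and Fkbp5 lay between 7.41 and 8.01 CPM per kb, each overlapping its neighbour in the order. Sgk1 was next at 5.95 ± 0.431, with both of its libraries under those of Fkbp5, and Cdkn1a and Zbtb16, which overlapped, were lowest at 0.868 ± 0.0160 and 0.808 ± 0.250 (SD, n = 2). By the means of the DDI2-KO-labelled libraries, Dusp1 stood at rank 3 in place of 6 and Klf9 at rank 6 in place of 3, and the first 2 places were the same.

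**Figure D3:**
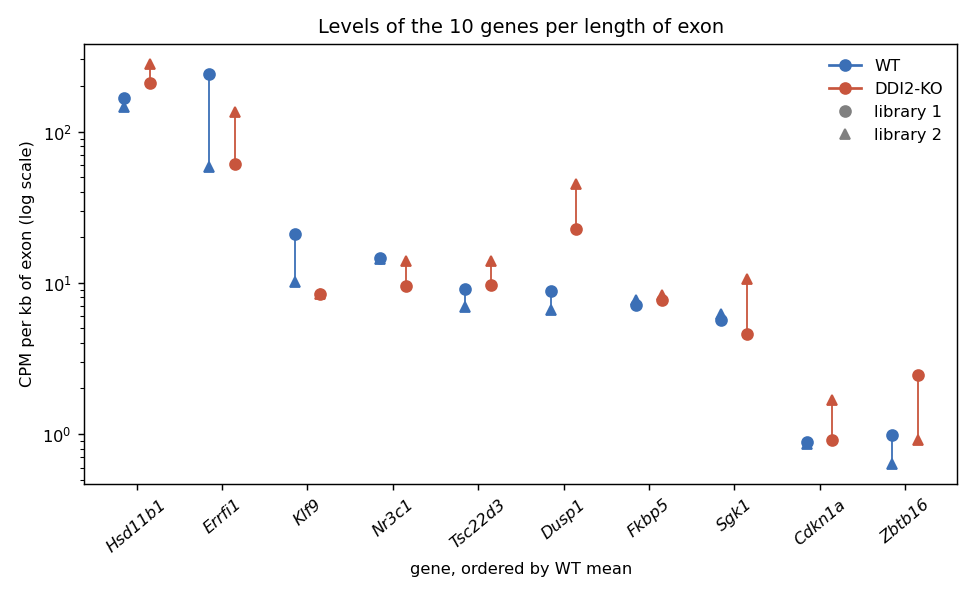
CPM per kb of exon, on a log axis, is shown for each library, with a line joining the 2 libraries of a group (WT blue, labelled DDI2-KO red) and genes ordered by their WT mean. Hsd11b1 and Errfi1 lie highest and Cdkn1a and Zbtb16 lowest in both groups.

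The rest of the pathway was taken from 5 further lists of 47 genes, of which 45 were tested. Of these, 5 passed, 2 higher (1.33% of all tested genes) and 3 lower (1.20% of all tested genes). By the fit, 31 were lower and 14 higher, with a median log2 fold change of -0.19 beside -0.015 over all tested genes.

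None of the 10 tested chaperone and receptor partner genes passed, and 8 were lower by the fit (median log2 fold change -0.32). The closest to the threshold was Stip1, the adaptor that joins HSP70 to HSP90, at 81.5 ± 9.40 CPM in WT and 55.4 ± 0.265 CPM in the DDI2-KO-labelled libraries (SD, n = 2). This gave a log2 fold change of -0.56 (SE 0.16, adjusted p = 0.0953 in edgeR's quasi-likelihood fit). Ppid, a cyclophilin of the receptor complex with 11.01% of its stretches of 50 bases shared with other genes, had a log2 fold change of -0.49 (SE 0.15, adjusted p = 0.111 by edgeR). Hsp90aa1, the inducible HSP90, had -0.82 (SE 0.38, adjusted p = 0.259 by edgeR), and 47.5% of its stretches are shared, which makes its count uncertain.

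Of the coregulators, 9 of 10 were lower by the fit, with a median log2 fold change of -0.28, and none passed the test. Ppargc1a, the coactivator of the fasting response, had 14.6 ± 1.87 CPM in WT and 8.08 ± 0.998 CPM in the DDI2-KO-labelled libraries (SD, n = 2). The difference of -0.86 on the log2 scale (SE 0.20) had an adjusted p of 0.0650 in edgeR's quasi-likelihood fit, and it passed with DESeq2 or with unfiltered counts. The acetyltransferase gene Ep300 had -0.41 (SE 0.16, adjusted p = 0.176 by edgeR). Of the steroid supply and clearance genes, none of 4 passed. Serpina6, the corticosteroid-binding globulin, had a log2 fold change of -0.53 (SE 0.28), H6pd, which feeds the HSD11B1 enzyme with NADPH, 0.12 (SE 0.21), and Akr1d1, a steroid reductase, 0.090 (SE 0.17). Hsd11b2, which inactivates the hormone in kidney, had at most 1 read in a library and was not tested.

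The metabolic targets split in direction. Pdk4, a kinase that shuts off pyruvate oxidation, was read by 228 and 214 reads in WT and by 918 and 750 in the DDI2-KO-labelled libraries, or 6.85 ± 0.102 and 34.1 ± 2.00 CPM (SD, n = 2). With a log2 fold change of 2.31 (SE 0.17, adjusted p = 0.00911 in edgeR's quasi-likelihood fit) it was the furthest above 0 of the pathway. G6pc, the enzyme of the last step of glucose release, rose from 119 and 71.5 CPM to 259 and 409 CPM (log2 fold change 1.81, SE 0.31, adjusted p = 0.0429 by edgeR). This call was lost without either library labelled DDI2-KO (adjusted p = 0.0567 without library 1 and 0.0947 without library 2, edgeR).

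Tdo2, which opens tryptophan breakdown, went the other way, from 951 and 1150 CPM in WT to 324 and 393 CPM in the DDI2-KO-labelled libraries. Its log2 fold change was -1.55 (SE 0.20, adjusted p = 0.0186 in edgeR's quasi-likelihood fit). The other classical targets Tat, a tyrosine-degrading enzyme, and Pck1, an enzyme of gluconeogenesis, named here after their values were seen, had log2 fold changes of -0.037 (95% CI -0.47 to 0.40) and -0.16 (95% CI -0.74 to 0.42). Tat was read at 868 and 1117 CPM in WT and at 943 and 992 CPM in the DDI2-KO-labelled libraries, inside the WT range.

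Among the 11 regulatory and anti-inflammatory targets tested, 2 passed, both lower, beside 1.20% of all tested genes. Per1 is a clock gene known for hormone response elements, although its 2 promoter windows searched here held no AGAACA hexamer. It had 8.95 and 8.22 CPM in WT and 2.90 and 4.22 CPM in the DDI2-KO-labelled libraries (log2 fold change -1.27, SE 0.25, adjusted p = 0.0438 in edgeR's quasi-likelihood fit). This call was lost in 6 of the 14 alternatives and omissions run, among them limma-voom and the fits without WT library 1 (adjusted p = 0.155, edgeR), WT library 2 (0.0839) or library 1 labelled DDI2-KO (0.0689). Mt1, which binds zinc and cadmium, had 97.3 and 47.0 CPM in WT and 5.41 and 4.66 CPM in the DDI2-KO-labelled libraries, a log2 fold change of -3.84 (adjusted p = 0.0186 by edgeR, and 0.187 and 0.185 without library 1 or 2 labelled DDI2-KO). Mt2 had a log2 fold change of -5.08 with an SE of 0.90 (adjusted p = 0.0803 by edgeR), and an opposite-strand gene covers 73.5% of its exon bases. Mt2 passed in 6 of the 14 alternatives and omissions run and not in the other 8. Its WT libraries differed by 3.78-fold and its DDI2-KO-labelled libraries by 1.08-fold. Its log2 fold change was -3.82 without WT library 1 and -5.74 without WT library 2, the ends of its range over all omissions of 1 library. For Mt1 the same omissions gave log2 fold changes of -3.22 and -4.27. Of the 10 genes that head this account, Klf9 had the lowest log2 fold change, at -0.87.

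**Figure D4:**
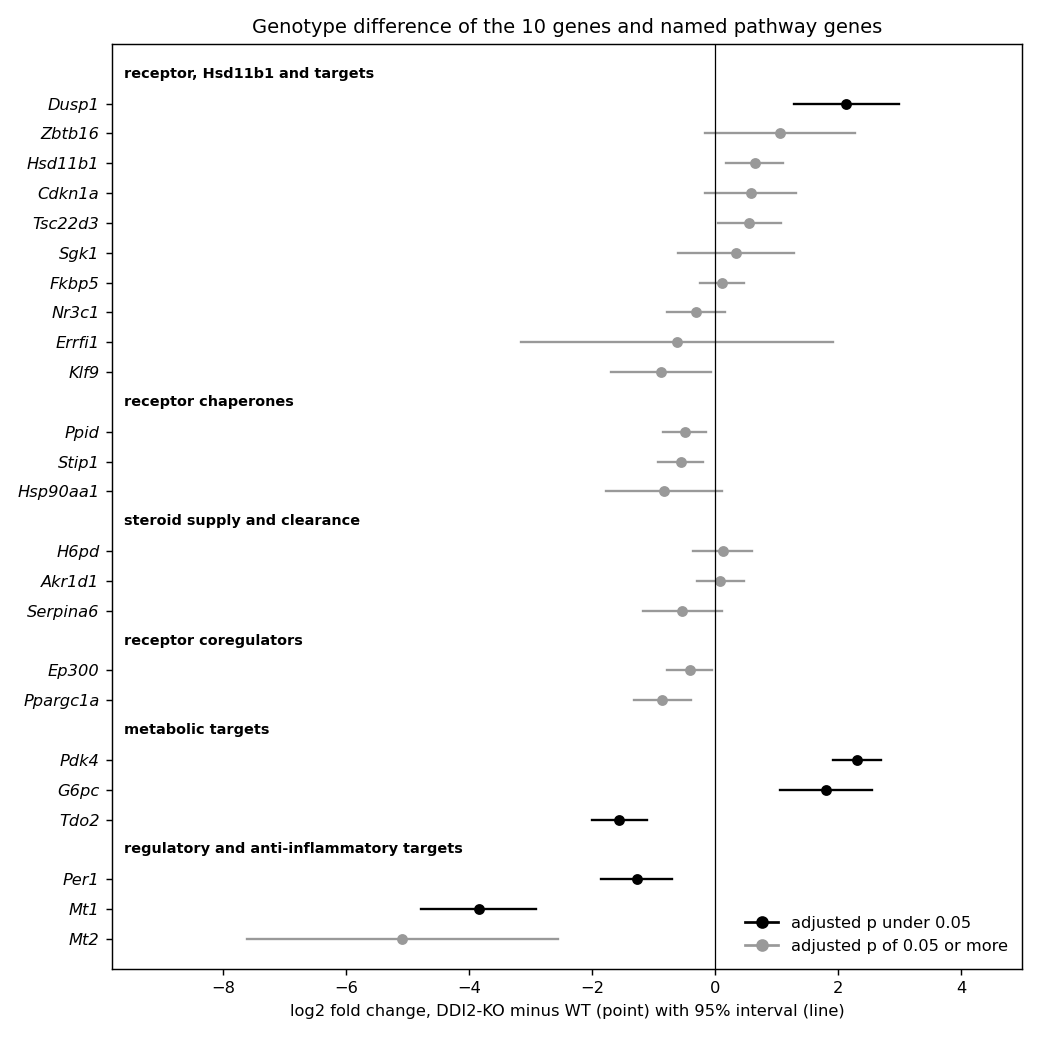
Points give the log2 fold change of the DDI2-KO-labelled libraries against WT and lines its 95% CI, by gene group, in black where the adjusted p was under 0.05 and in grey otherwise. Dusp1, Pdk4 and G6pc lie to the right of 0 and Tdo2, Per1 and Mt1 to the left, while the interval of Errfi1 runs from -3.16 to 1.92.

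Other genes were also compared between the groups. Of 13 clock genes tested besides Per1, 9 were lower by the fit, with a median log2 fold change of -1.06. The groups separated downward in 7 of the 13 and upward in 1, beside 27.7% and 28.0% of all tested genes. Only Nr1d2, a repressor of the clock loop, passed (-1.08, adjusted p = 0.0289 in edgeR's quasi-likelihood fit), beside 1.20% of all tested genes called lower. Its call was kept in 13 of the alternatives and omissions run and lost in 1. The 4 clock genes higher by the fit, named after their values were seen, were Cry1 (1.23, SE 0.29), Npas2 (0.94, SE 0.74), Arntl (0.93, SE 0.60) and Bhlhe40 (0.28, SE 0.24). In all of them but Cry1 the groups overlapped. The WT libraries differed from each other by 1.03-fold in Bhlhe41 to 6.37-fold in Ciart, beside a median of 1.14-fold over all tested genes. The summed level of the 13 genes, which went both ways, was 560 and 796 CPM in WT and 485 and 429 CPM in the DDI2-KO-labelled libraries. The hour at which each liver was taken is not given in the sources used here. The part of the time of day in the levels of Per1, Klf9 and the other targets was not tested.

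Of the cell type marker lists, 2 held a gene that passed. Stab2, of sinusoidal endothelium, was lower (log2 fold change -1.10, adjusted p = 0.0288 in edgeR's quasi-likelihood fit). Its call was kept in 13 of the alternatives and omissions run and lost in 1. It was the only 1 of 6 endothelial markers past the test, beside 1.20% of all tested genes called lower. By the fit, 3 of the 6 were higher and 3 lower, with a median log2 fold change of -0.12. Their summed level was 363 to 394 CPM in WT and 345 to 354 CPM in the DDI2-KO-labelled libraries. All 5 red cell markers were lower by the fit, Hba-a1 past the test (-1.94, adjusted p = 0.0338 by edgeR, and 0.196 and 0.213 without library 1 or 2 labelled DDI2-KO), with sums of 109 to 210 and 68.3 to 79.3 CPM, and 72.3% of the Hba-a1 stretches are shared, mostly with Hba-a2. No marker of Kupffer cells (Clec4f first in the list), stellate cells (Lrat), bile ducts (Krt19), lymphocytes (Cd3e) or neutrophils (S100a8) passed. The Kupffer cell sum was 668 and 578 CPM in WT and 824 and 702 CPM in the other group, with 5 of 6 markers higher by the fit, and that of bile ducts 56.4 and 52.8 against 70.4 and 68.7 CPM, with 4 of 5 higher. The stellate cell sum was 423 and 438 CPM in WT and 378 and 417 CPM in the other group, with all 6 markers lower by the fit. None of these 3 sums overlapped between the groups, nor did those of the hepatocyte, endothelial, red cell and neutrophil markers. Of all tested genes, 55.7% separated the groups in the same way, so a separation of sums is to be read against that share. The neutrophil sums came as close as 2.20 and 2.22 CPM. Lymphocyte sums overlapped (8.63 and 11.5 against 7.96 and 9.36 CPM), with 5 of 6 markers lower. The 4 neutrophil markers summed to 1.52 and 2.20 CPM in WT and to 2.40 and 2.22 CPM in the other group, both tested markers being higher by the fit, and Ly6g was at 0 in every library. The part of blood and other cells in the levels of the 10 genes was not tested.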

How the data were processed

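RNA was extracted from liver with the RNeasy kit, and TruSeq stranded mRNA libraries were sequenced on an Illumina HiSeq instrument. The authors deposited raw counts of reads per Ensembl gene for each library, without normalization. The submitters' processing notes name cutadapt 1.8, STAR 2.5.2b, HTSeq 0.6.1 and GRCm38. The annotation and the strand setting of the counting are not given in the sources used here. Summary lines of the counting program were left out. They came to 2.53% to 5.11% of the reads on genes for reads outside genes and 47.3% to 65.8% for reads with several alignments. Symbols and exon lengths are from GENCODE M21, which holds 48349 of the 48709 identifiers.

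Counts were compared with edgeR 4.0.16 in R 4.3.3 (TMM, filterByExpr, robust glmQLFit, glmQLFTest), with Benjamini-Hochberg adjustment over 13699 genes and a threshold of 0.05, without a replicate block. The study used limma, which was run as an alternative (3.58.1), as was DESeq2 1.42.0. Other scalings, filters, a block, a threshold of 0.1 and each library left out were also tried. The script was tested on simulated data. Libraries of a group differed by more than counting noise (chi-square per degree of freedom 69.7 in WT and 37.4 in the other group), so each counted as a sample. The p-values rest on the spread between the 2 mice of a group, moderated by a spread estimated over all genes. A floor of 3 counts was 0.0880 to 0.133 CPM and covers counting error alone.

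The 10 genes and the other lists were chosen with earlier results of these data known. Besides the 10 genes, Mt1, Mt2 and Ddi2, the text names from each pathway list the genes with an adjusted p under 0.05, filled up to 3 by the lowest p, from each context list those under 0.05, at most 3, and from each marker list its first gene. A gene that this rule names is not reported here. Stretches of 50 bases were searched in the transcripts of other genes, and in the 10 genes at most 2.14% of them were shared. Promoter windows and their motifs were read from a RefSeq table of GRCm38.p6.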

Additional observations from a re-analysis of the deposited data

Results flagged for a closer look

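Reads that overlapped more than one gene and were counted on none of them lie outside every comparison above. They came to 3.57% of the reads on genes in the mean of the DDI2-KO-labelled libraries and 2.52% in that of WT, and they are given because this share was above the level in the control samples. Their part in the levels of the 10 genes was not tested. Of the exon bases of the 10 genes, none overlapped another gene on the same strand, and on the opposite strand 0.332% did in Dusp1 and 7.68% in Cdkn1a.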

How the results depend on the processing

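The main fit tested 13699 genes, whereas DESeq2 and the fit without the filter on low counts took in 21099. The share of genes called was 2.53% in the main fit, 4.30% with DESeq2, 7.32% without the filter and 8.09% with a replicate block. With 346 genes called over all genes, the count was 907 with DESeq2, 136 with limma-voom and 139 with limma-trend. It was 1544 without the filter on low counts, 152 without robust estimation and 1281 at an adjusted p under 0.1. Leaving out 1 library at a time gave 153 to 631. The share of higher calls was 52.6%, with 39.7% under upper-quartile factors and 60.8% with library totals only. Of the 10 genes 1 was called, and 3 with DESeq2 (Hsd11b1, Dusp1 and Klf9), 2 without the filter and 1 to 2 with a library left out, Klf9 in place of Dusp1 without WT library 2. Of the other pathway genes 5 were called, 8 at an adjusted p under 0.1, and 3 to 6 with a library left out. The replicate numbers do not pair the mice by any label, and deviations of same-numbered libraries had a correlation of 0.0588 over 13699 genes. With the replicate block, 1108 genes, 1 of the 10 genes (Zbtb16, adjusted p = 0.0414 from edgeR, in place of Dusp1, 0.0611) and 9 other pathway genes were called. Signs reversed for Sgk1 (-0.37 without library 2 labelled DDI2-KO, range up to 0.83), Errfi1 (0.74 without WT library 1, range down to -1.30), H6pd (-0.044 without WT library 2 and -0.060 without library 1 labelled DDI2-KO, range up to 0.32) and S100a8 (-0.17 without WT library 1, range up to 0.68). Over 38 named genes and their alternatives, 481 values kept direction and side of the threshold, 24 lost the call and 18 gained it. The cause of these changes was not tested. In fits without a library, the lone library of a group is assumed to vary like the other group. Precision is limited by having 2 mice in a group rather than by the read depth.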

Other observations

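The gene families of the targets, looked up after the values had been seen, held no further call. Of 14 tested dual specificity phosphatases other than Dusp1 none passed edgeR's quasi-likelihood fit, and their median log2 fold change was -0.018. The nearest was Dusp6, a phosphatase of ERK, at 38.0 and 29.0 CPM in WT and 51.5 and 86.6 CPM in the DDI2-KO-labelled libraries (log2 fold change 1.04, SE 0.26, adjusted p = 0.0777 by edgeR). Like Dusp1, it was highest in library 2 labelled DDI2-KO. Dusp10, a phosphatase of JNK and p38, had a log2 fold change of -0.71 (SE 0.22, adjusted p = 0.112 by edgeR).

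The relatives of Tsc22d3 lay on opposite sides of 0 by the fit. Tsc22d1 had 22.7 and 18.9 CPM in WT and 31.3 and 55.7 CPM in the DDI2-KO-labelled libraries (log2 fold change 1.06, adjusted p = 0.0808 by edgeR). Tsc22d4 had 10.4 and 13.1 CPM in WT and 7.34 and 4.40 CPM in the DDI2-KO-labelled libraries (95% CI of the log2 fold change -1.63 to -0.37, adjusted p = 0.0869 by edgeR), and neither passed. Sgk2 (0.095) and Sgk3 (-0.033) had log2 fold changes near 0 with SEs of 0.23 and 0.22. Cdkn1b and Cdkn1c, relatives of Cdkn1a, had log2 fold changes of -0.64 and -0.61, with adjusted p of 0.170 and 0.286 from edgeR. Of 11 tested immunophilins of the Fkbp family other than Fkbp5, Fkbp2 came nearest to the threshold, with a log2 fold change of -0.83 (SE 0.17, adjusted p = 0.0503 by edgeR).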
